A study of Homo sapiens and Mus musculus with 69 samples.

Results

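H82 cells without doxycycline were compared between 3 libraries from cells in which STING1 had been knocked out (STING1 KO; libraries 55, 56 and 57) and 3 libraries from cells with intact STING1 (libraries 4, 5 and 6). These 6 libraries, of 69 in the series, were chosen by their labels alone, and every gene was considered: 13903 of the 20516 genes in the table reached a log2 value of 1 in at least 3 of the 21 H82 libraries and were tested. H82 is an established small cell lung cancer (SCLC) line of the neuroendocrine type driven by NEUROD1. Both groups carried a lentiviral vector for the intracellular domain of human NOTCH1 (N1ICD) that is switched on by doxycycline, and neither group received doxycycline. The knockout was made with a lentiviral CRISPR/Cas9 vector carrying 1 target sequence. Single-cell STING1 KO clones of H82 are shown by immunoblot in the study, but the labels do not tie the libraries of a group to clones or repeat cultures. P values therefore measure the spread between libraries, which may be technical. Other H82 groups of 3 libraries each served as reference, namely STING1 KO and intact cells with doxycycline, parental cells without the vector, and REST KO cells with the vector, with and without doxycycline. Libraries of the COR-L88 line with and without STING1 knockout, all given the solvent DMSO, were a second cell line.

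The cGAS-STING pathway detects DNA in the cytoplasm. CGAS makes a cyclic dinucleotide that binds STING1, an adaptor of the endoplasmic reticulum, and STING1 then recruits the kinase TBK1, which activates the transcription factor IRF3 and the production of interferon and chemokines. Neuroendocrine SCLC cells are known for low levels of STING1 and of the class I antigen presentation machinery. Their neuronal and secretory genes are held in check in other cell types by REST, a repressor that binds an element called RE1 and that is itself raised by Notch signaling.

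Values are log2(RPKM + 1), where RPKM is the read count scaled by transcript length and library size, and a difference is the STING1 KO mean minus the intact mean on that scale, which understates the change of genes with low values. A gene was called when its limma P value, adjusted over all 13903 genes, was under 0.05 and its difference was at least 1 in size. The read totals of the libraries were not given, but the steps between low values placed the intact libraries at 1.04 to 1.11 and the STING1 KO libraries at 0.714 to 0.735 of the median size of the human libraries. Intact library 4 stood apart from the other intact libraries, with a correlation across genes of 0.958 and 0.964 with libraries 5 and 6, against 0.993 between those and 0.984 to 0.989 among the STING1 KO libraries. Correlations between the groups were 0.923 to 0.955. Of the neuroendocrine markers, NEUROD1 lay between 11.80 and 14.41 and SYP, a synaptic vesicle protein, between 5.20 and 7.01 in all 6 libraries. SYP, CHGA, NCAM1 and INSM1 were called lower in STING1 KO libraries, as given below, and NEUROD1 and UCHL1 were not called. Marker levels do not identify a cell line. Of 10 markers of immune cells, fibroblasts and endothelium in the table, 5 were under 0.1 in every library, including PTPRC, DCN and CDH5. The highest was CD14 at 1.74, and the summed level of the 10 ran from 0.89 to 1.96 in intact and from 1.44 to 2.40 in STING1 KO libraries.

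STING1 itself (listed under its older symbol TMEM173; GRCh37 chr5:138855118-138862520, minus strand) was close to 0 in both groups. Its values were 0.04, 0 and 0 in the intact libraries and 0.55, 0.52 and 0.11 in the STING1 KO libraries. The knockout libraries thus lay above the intact ones without overlap, by 0.38 (SE 0.18, adjusted P = 0.113), which did not pass the test. With a pseudocount of 0.1 in place of 1, the difference was 1.79 (adjusted P = 0.00289), also higher in the knockout. The parental libraries read 0.53, 0.25 and 0.21, and the REST KO libraries 0, 0.01 and 0.02. With doxycycline the level was 1.07 to 1.17 in the intact and 1.27 to 2.04 in the STING1 KO libraries. The mRNA level is no check of the knockout label, because a Cas9 cut can end the protein while the transcript remains and because the intact cells held almost no STING1 mRNA to lose. None of the 10 other tested genes within 500 kb of STING1 was called. The lowest adjusted P among them was that of MATR3, which encodes a nuclear matrix protein, with 7.36, 7.30 and 7.24 in intact and 6.33, 6.35 and 6.62 in STING1 KO libraries (difference -0.87, under the threshold of size; adjusted P = 0.00024).

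**Figure D1:**
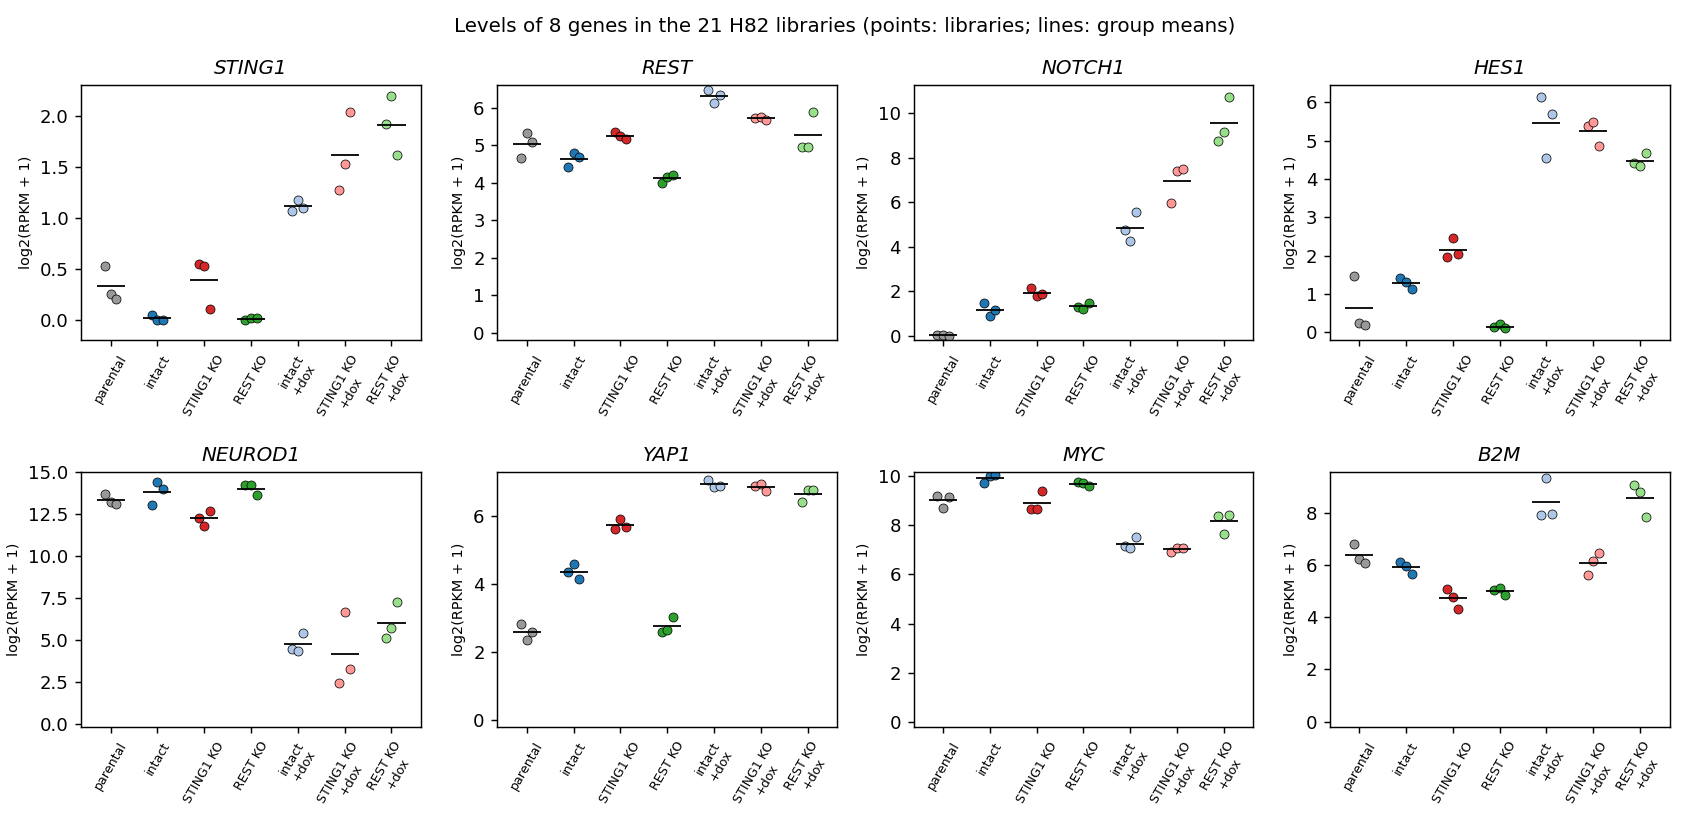
Levels of 8 genes in log2(RPKM + 1) on the y axis for the 7 H82 groups on the x axis, 3 libraries each; points are libraries and horizontal lines are group means. STING1 stayed between 0 and 0.55 in every group without doxycycline, B2M was lower and YAP1 was higher in STING1 KO than in intact libraries without doxycycline, and NEUROD1 stayed between 11.80 and 14.41 in both.

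Across the genome, 1996 of 13903 genes were called between STING1 KO and intact cells without doxycycline, or 14.4%. Of these, 923 were higher (6.64% of genes tested) and 1073 lower (7.72%) in the knockout. With quantile normalized libraries the split turned, with 996 higher and 729 lower. It also turned with median-centred libraries, with 1078 higher and 890 lower. The median difference over all tested genes was -0.11 on the log2 scale. List medians are to be read beside this shift, and list counts beside the shares of 6.64% higher and 7.72% lower. The groups did not overlap in 6677 of the 13903 genes (48%), so a lack of overlap alone does not set a gene apart. Calls in the same direction held in all 6 fits that left out 1 library for 1272 genes, 601 higher and 671 lower. Without intact library 4, 2267 genes were called, and 1666 of the 1996 were among them.

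The 12 named lower genes held 9 that are known from neurons or secretory vesicles and 3 that are not. STMN2, a regulator of microtubules in growing neurites, read 5.77, 9.30 and 9.02 in intact and 0.38, 0.54 and 1.23 in STING1 KO libraries (difference -7.32, SE 0.66, adjusted P = 4.89e-07). Intact library 4 was the lowest intact library for STMN2 and still lay far above every knockout library. SYT4, a synaptotagmin of secretory vesicles (GRCh37 chr18:40847857-40857500), read 5.38, 6.46 and 6.26 against 0, 0.56 and 0.21 (difference -5.78, SE 0.33, adjusted P = 4.13e-09). PTPRN, a membrane protein of dense core vesicles (chr2:220154345-220174370), fell from 6.31, 7.12 and 7.20 to 2.34, 1.52 and 2.61 (difference -4.72, SE 0.39, adjusted P = 1.54e-07). All 3 were lower in every knockout library than in every intact library.

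Subunits of neurotransmitter receptors were among the 9. GABRA5, the alpha 5 subunit of the GABA-A receptor (chr15:27112058-27194355), read 5.00, 6.55 and 6.70 in intact libraries and was listed at 0 in all 3 STING1 KO libraries (adjusted P = 6.2e-09). Parental libraries read 0.80, 0.72 and 0.41 for GABRA5, so that the intact libraries were high and the knockout was not called against parental cells (-0.64, adjusted P = 0.163). CHRNB2, the beta 2 subunit of nicotinic acetylcholine receptors (chr1:154540254-154552489), read 8.32, 7.25 and 7.29 against 2.57, 3.09 and 3.36 (difference -4.61, SE 0.29, adjusted P = 1.31e-08). GAP43, a protein of growth cones, read 5.75, 4.12 and 5.36 in intact libraries and was listed at 0 in the knockout (adjusted P = 4.92e-06), as was CLVS1, a lipid-binding protein of clathrin-coated vesicles (4.48, 4.53 and 4.13 in intact libraries; adjusted P = 2.26e-07). These 4 genes did not overlap between the groups. The neuronal vesicle proteins NRSN1 and CAMKV were lower by a like amount, with differences of -4.45 (SE 0.32 and SE 0.35; adjusted P = 3.4e-08 and 1.03e-07).

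The other 3 of the 12 were a lipase, a metallothionein and a cancer-testis gene. LPL, lipoprotein lipase, read 3.06, 5.47 and 5.00 against 0.37, 0.03 and 0.14 (difference -4.33, SE 0.39, adjusted P = 5.18e-07). MT1G, a metal-binding metallothionein, read 7.34, 7.91 and 7.25 against 3.54, 4.49 and 1.95 (difference -4.18, SE 0.61, adjusted P = 6.11e-05). GAGE12H, a cancer-testis gene on chromosome X, read 3.91, 4.45 and 4.81 against 0, 0 and 0.75 (difference -4.14, SE 0.27, adjusted P = 1.42e-08). The GAGE genes are near-identical copies, and the metallothionein genes are close paralogs, so the split of reads between members is uncertain.

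**Figure D2:**
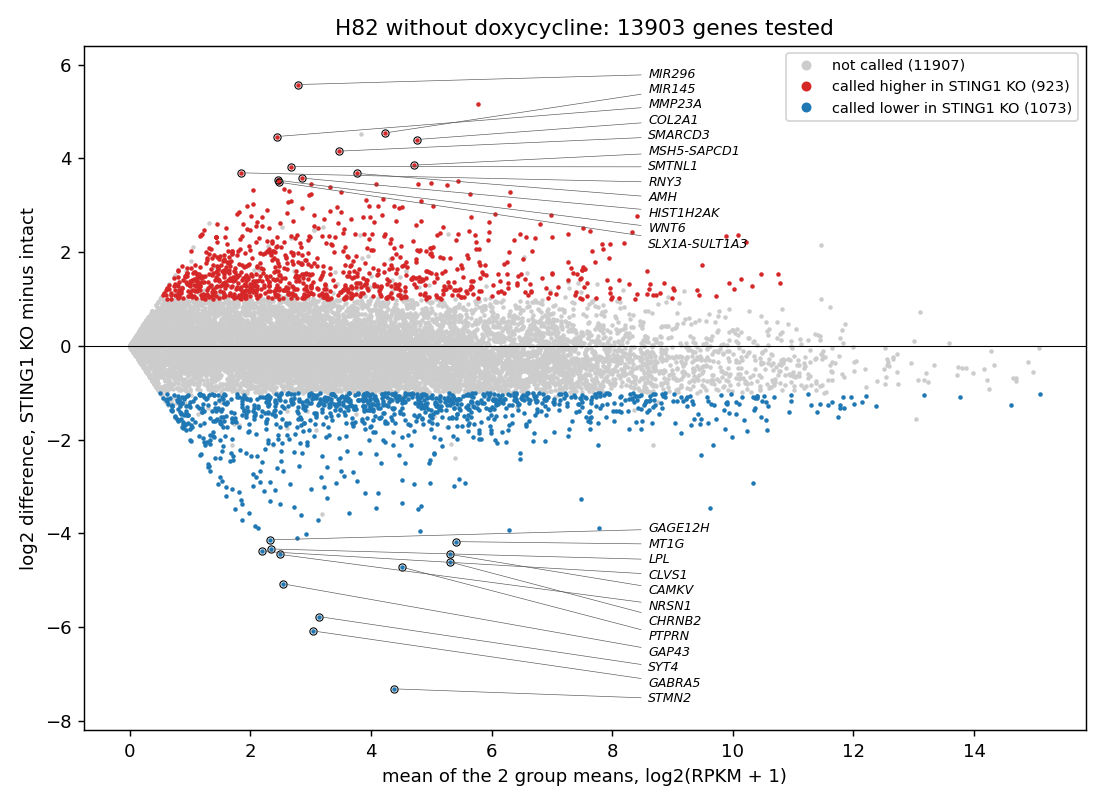
Difference between STING1 KO and intact libraries (y axis, log2 units) against the mean of both group means (x axis, log2(RPKM + 1)) for the 13903 tested genes; red and blue points are genes called higher (923) and lower (1073), and circles with names mark the 24 genes taken by the naming rule. The named lower genes reach -7.32 and the named higher genes 5.58.

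The higher genes with the largest differences were of mixed kinds, and several of the entries are short, read-through or duplicated. COL2A1, the collagen of cartilage (chr12:48366750-48398337), rose from 1.72, 3.07 and 2.89 to 7.02, 7.12 and 6.75 (difference 4.40, SE 0.38, adjusted P = 2.65e-07). SMARCD3, a subunit of the BAF chromatin remodeling complex (chr7:150935850-150974982), rose from 0, 2.73 and 1.44 to 5.66, 5.83 and 5.14 (difference 4.16, SE 0.57, adjusted P = 3.28e-05). SMTNL1, a smoothelin-like protein of muscle, rose from 0.94, 0.76 and 0.58 to 4.42, 5.04 and 4.30 (difference 3.83, SE 0.39, adjusted P = 1.91e-06). In these 3 genes the knockout libraries lay close together and clear of the intact libraries.

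The secreted signals AMH and WNT6 were also higher. AMH, anti-Mullerian hormone, read 4.06, 0.56 and 1.17 in intact and 6.14, 5.19 and 5.50 in STING1 KO libraries (difference 3.68, SE 0.67, adjusted P = 0.000448), with intact library 4 nearest to the knockout. WNT6, a Wnt ligand, read 0, 0 and 2.08 against 5.05, 4.29 and 3.34 (difference 3.53, SE 0.93, adjusted P = 0.00709). The other 7 entries were the hairpins MIR296 and MIR145, the Y RNA RNY3, the histone gene HIST1H2AK, MMP23A, which is a copy of MMP23B, and the read-through entries MSH5-SAPCD1 and SLX1A-SULT1A3. MIR296 and RNY3 were listed at 0 in all 3 intact libraries. Parental libraries read 5.33, 4.62 and 5.52 for MIR296, near the 6.89, 4.94 and 4.91 of STING1 KO libraries. The libraries were made from polyadenylated RNA, so an entry for a hairpin or Y RNA does not measure the mature small RNA. Over the 28 tested genes whose longest transcript is at most 200 bases, the median difference was 0.84 and 8 were called higher and 0 lower.

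The components of the cGAS-STING pathway changed little. Of 26 genes on the list, 19 were tested, 1 was higher, 0 were lower and 18 were not called, with a median difference of -0.05 beside -0.11 over all genes. TBK1 read 3.47, 2.73 and 3.10 in intact and 2.80, 2.84 and 2.60 in STING1 KO libraries (difference -0.35, SE 0.19, adjusted P = 0.154). IRF3 read 2.24, 2.45 and 2.51 against 2.74, 2.53 and 2.48 (difference 0.18, SE 0.15, adjusted P = 0.366), and the values of both genes overlapped between the groups. CGAS stayed at or below 0.16 in all 6 libraries and was below the filter. The called gene was STAT6, a transcription factor of interleukin 4 signaling that STING1 can also recruit, with 4.72, 4.70 and 4.54 against 5.89, 5.77 and 5.60 (difference 1.10, SE 0.22, adjusted P = 0.00103). The output genes IFNB1, CXCL10 and CCL5 were listed at 0 in all 6 libraries, so no decrease in them could have been detected.

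Genes of interferon reception and signaling went in both directions. Of 15 genes, 14 were tested, of which 1 was higher, 2 were lower and 11 were not called (median -0.12). The shares over all genes were 6.64% higher and 7.72% lower. USP18, which removes ISG15 from proteins and dampens receptor signaling, fell from 5.93, 6.19 and 6.33 to 4.42, 4.58 and 5.09 (difference -1.45, SE 0.38, adjusted P = 0.00663). IRF9, the DNA-binding subunit of a factor that acts downstream of type I interferon receptors, rose from 0.54, 1.27 and 1.36 to 3.01, 2.99 and 1.89 (difference 1.58, SE 0.28, adjusted P = 0.000332). Neither USP18 nor IRF9 overlapped between the groups. STAT2 read 7.11, 6.76 and 6.83 against 7.91, 8.16 and 7.41 (difference 0.92, adjusted P = 0.0218) and fell short of the threshold of size.

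Interferon-stimulated genes were mostly at low levels in both groups. Of 45 genes, 31 were tested, 2 were higher, 1 was lower and 28 were not called, with a median of 0.00. IFITM2, a membrane protein that blocks virus entry, rose from 1.63, 2.88 and 2.95 to 6.16, 5.76 and 4.47 (difference 2.98, SE 0.43, adjusted P = 5.65e-05). Its neighbor IFITM3 rose from 1.82, 1.77 and 1.61 to 4.32, 4.15 and 3.30 (difference 2.19, SE 0.28, adjusted P = 1.98e-05). These genes are close paralogs, so their reads may be shared. IFI30, a lysosomal thiol reductase, fell from 9.01, 9.42 and 9.06 to 7.73, 7.77 and 7.93 (difference -1.35, SE 0.35, adjusted P = 0.00632). IFIT1, MX1, OAS1 and RSAD2, which rise strongly in cells exposed to interferon, were at 0.10 or below in every library.

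In the class I antigen presentation machinery, 19 of 20 genes were tested, 0 were higher, 2 were lower and 17 were not called (median 0.00). B2M, the light chain of every class I molecule, fell from 6.11, 5.96 and 5.64 to 5.09, 4.79 and 4.29 (difference -1.18, SE 0.36, adjusted P = 0.0175). CALR, a chaperone of the peptide loading complex, fell from 9.27, 9.38 and 9.00 to 8.35, 8.22 and 8.03 (difference -1.02, SE 0.26, adjusted P = 0.00547). Neither call held in every fit that left out 1 library: B2M kept it in 4 and CALR in 3 of the 6, and without intact library 4 the differences were -1.08 (adjusted P = 0.0512) and -0.995 (adjusted P = 0.0146). HLA-B read 0.65, 0.74 and 0.91 against 1.08, 0.95 and 0.47 (difference 0.06, SE 0.30, adjusted P = 0.906), with overlapping groups. HLA-C read 2.17, 2.35 and 2.45 against 3.22, 3.41 and 2.82 (difference 0.83, adjusted P = 0.0439), under the threshold of size. The peptide transporter TAP1 stayed at or below 0.30 in all 6 libraries.

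The neuroendocrine genes were lower as a group. Of 34 genes on the list, 28 were tested, 18 were lower, 0 were higher and 10 were not called. The median difference was -1.49 beside -0.11 over all genes, and 7.72% of all genes were called lower. The mean level over the 28 genes was 4.17, 4.85 and 4.81 in the intact and 2.73, 2.69 and 2.90 in the STING1 KO libraries. These are bulk RNA values, in which fewer neuroendocrine cells and less of these RNAs per cell cannot be told apart. The list was assembled with earlier results of these data known and is not independent evidence of its direction.

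Among proteins of the secretory granule, CHGA (chromogranin A) fell from 6.85, 5.76 and 5.93 to 2.86, 2.67 and 4.21 (difference -2.94, SE 0.34, adjusted P = 8.05e-06). CHGB (chromogranin B) fell from 4.54, 4.30 and 4.45 to 1.06, 0.62 and 1.31 (difference -3.43, SE 0.23, adjusted P = 2.16e-08). SCG3, a granin-binding protein, fell from 11.48, 12.06 and 11.82 to 8.87, 9.31 and 8.42 (difference -2.92, SE 0.42, adjusted P = 5.87e-05). CHGA, CHGB and SCG3 RNA was lower in all 3 knockout libraries than in every intact library. PCSK1N, a gene of the same granules that is not on the list, went the other way and was 2.52 higher in STING1 KO. PCSK2, a protease that matures prohormones, fell by 4.01 (SE 0.49, adjusted P = 1.07e-05). SCG2 and PCSK1, which serve the same granules, were at 1.45 or below in the intact libraries, with differences of -0.95 and -0.82 that were not called.

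Among proteins of the synapse, SYN1 (synapsin 1) fell from 2.17, 2.63 and 2.34 to 0.24, 0.45 and 0.20 (difference -2.08, SE 0.14, adjusted P = 2.49e-08). SNAP25, a membrane fusion protein, fell from 2.92, 2.40 and 2.31 to 0.53, 0.80 and 0.55 (difference -1.91, SE 0.24, adjusted P = 1.31e-05). SYP, the usual synaptophysin marker of SCLC, fell from 6.96, 6.90 and 7.01 to 5.56, 5.20 and 6.36 (difference -1.25, SE 0.23, adjusted P = 0.000406). The surface marker NCAM1 fell from 4.10, 4.78 and 4.64 to 2.88, 2.88 and 2.85 (difference -1.64, SE 0.34, adjusted P = 0.00133). For each of these markers the groups did not overlap. SEZ6, BEX1, NEUROD4, RUNDC3A, SCG5, KIF5C, SYT1 and INSM1 were also called lower, with differences between -3.09 and -1.04, of which SYT1 held its call in 1 of the 6 fits without 1 library (highest adjusted P = 0.118).

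The lineage factors were NEUROD1 and INSM1, beside NEUROD4 above. NEUROD1 read 13.03, 14.41 and 14.00 in intact and 12.28, 11.80 and 12.67 in STING1 KO libraries, a difference of -1.56 without overlap that did not pass the test (SE 0.76, adjusted P = 0.12). INSM1, another neuroendocrine transcription factor, fell from 3.30, 3.54 and 3.86 to 2.51, 2.18 and 2.88 (difference -1.04, SE 0.36, adjusted P = 0.0311), but the call held in 2 of the 6 fits that left out 1 library. UCHL1, an abundant neuronal deubiquitinase, read 8.54, 8.30 and 8.28 against 8.26, 8.45 and 8.34 (difference -0.03, adjusted P = 0.971), and ENO2, neuron-specific enolase, also overlapped between the groups.

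**Figure D3:**
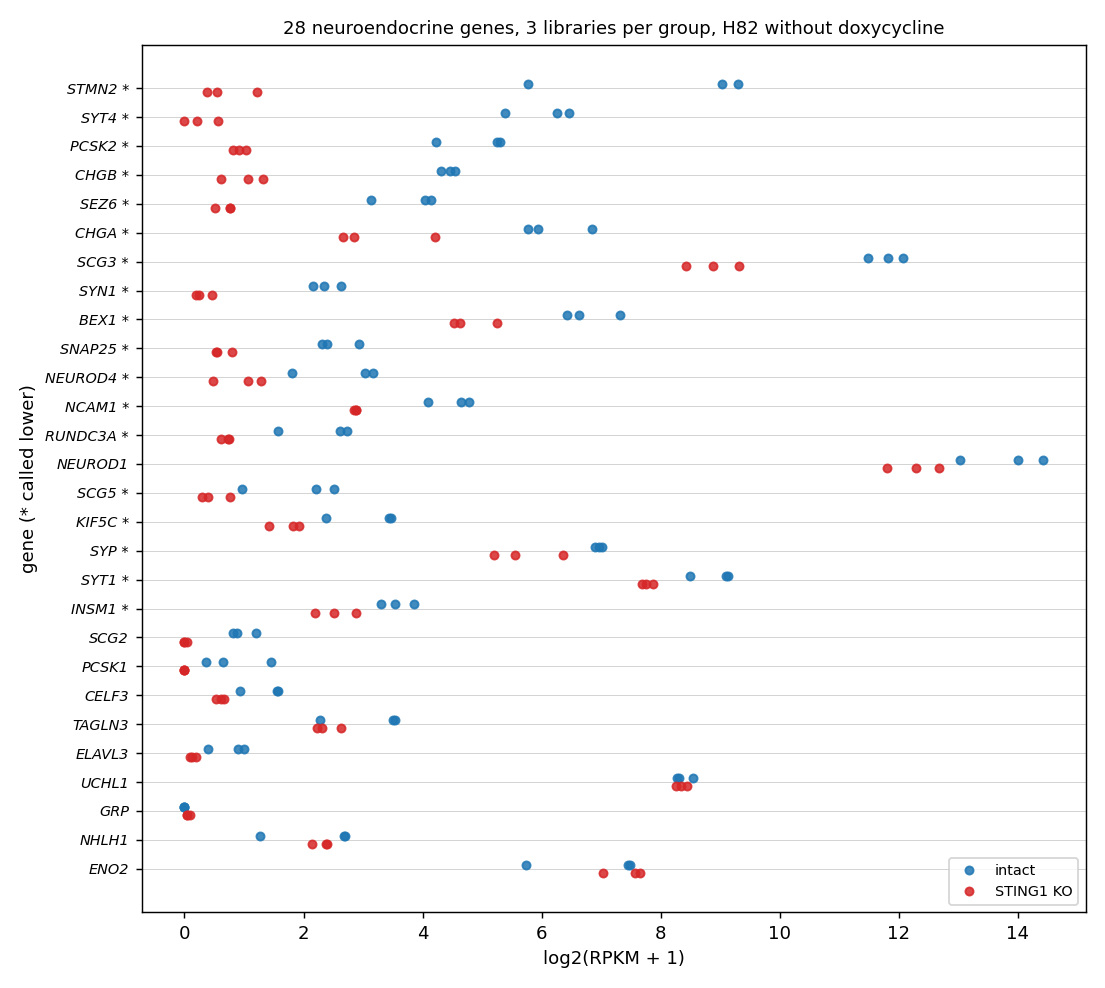
Levels of the 28 tested neuroendocrine genes in log2(RPKM + 1) on the x axis, 1 gene per row, with 3 intact libraries in blue and 3 STING1 KO libraries in red; an asterisk marks the 18 genes called lower. The red points lie to the left of the blue points for STMN2 through INSM1, whereas those of UCHL1, NHLH1 and ENO2 overlap.

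REST, the repressor of such genes, was measured beside them. REST read 4.42, 4.80 and 4.70 in intact and 5.35, 5.26 and 5.17 in STING1 KO libraries, without overlap (difference 0.62, SE 0.22, adjusted P = 0.0363), which is under the threshold of size. To show the element at genes that were lower, the promoters of RefSeq (GRCh38.p14; 250 bases before to 50 after the start of a gene) were searched on both strands. The letters searched were the left part of the element, TTCAGCACC, the same without its first letter, TCAGCACC, and the latter followed after 2 to 5 bases by GGACAG; each longer match contains the shorter. Promoters were given for 11 of the 18 neuroendocrine genes called lower, and 4 of them held TCAGCACC. They belong to SYN1, SCG3, KIF5C and SYT4. Of these, 3 are shown around the match, in the direction of the gene, with the matching letters in capitals (reverse complemented for KIF5C, where the match is on the opposite strand).
SYN1, chrX:47620048-47620107, minus strand: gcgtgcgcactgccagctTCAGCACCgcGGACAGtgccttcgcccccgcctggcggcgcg
SCG3, chr15:51681500-51681529, plus strand: gtcacaggaacTTCAGCACCcacagggcgg
KIF5C, chr2:148875226-148875255, plus strand: cagagcgcgctGGTGCTGAtgcaggatggc
SYN1 held both parts. Over all 10973 tested genes with a promoter in the table, TCAGCACC was present in 1.54%, TTCAGCACC in 0.319% and both parts in 0.0273%. Among the 834 genes called lower the shares were 2.40%, 0.959% and 0.12%, and among the 634 called higher they were 1.58%, 0.315% and 0.158%. Both parts were found in only 3 promoters over all, of which 1 belonged to a lower and 1 to a higher gene. TTCAGCACC was found in 8 promoters of lower and 2 of higher genes. These are matches of letters and not measured binding, and a promoter without a match says nothing about REST elsewhere in the gene. Neuroendocrine genes that were not called were not counted on their own. The 4 of 11 thus cannot tell the lower genes from the list as a whole. A link between REST and the lower levels was not tested.

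The Notch pathway did not move as a group: of 28 genes, 25 were tested, 1 was higher, 1 was lower and 23 were not called (median 0.07). NOTCH1 read 1.45, 0.88 and 1.15 in intact and 2.15, 1.77 and 1.89 in STING1 KO libraries (difference 0.77, SE 0.44, adjusted P = 0.181). Its target HES1, a repressor of neuroendocrine genes, read 1.42, 1.31 and 1.14 against 1.98, 2.47 and 2.04 (difference 0.88, SE 0.34, adjusted P = 0.0563). Both lay higher in every knockout library, and neither passed the test. Groups without overlap, in either direction, were found in 48% of all tested genes. The called genes were RFNG, a glycosyltransferase of Notch receptors, at 1.07 higher (SE 0.26, adjusted P = 0.0044; called in 4 of the 6 fits without 1 library), and DTX1, a ubiquitin ligase of the pathway, which fell from 1.71, 1.93 and 2.01 to 0.07, 0.16 and 0.10 (difference -1.77, SE 0.22, adjusted P = 1.49e-05). Parental cells, which lack the vector, read 0.04, 0.01 and 0.01 for NOTCH1, below every library of both groups.

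Mesenchymal genes went in both directions, with 7 of 58 tested genes higher, 2 lower and 49 not called (median -0.05). Beside them, 6.64% of all genes were higher and 7.72% lower. YAP1, a transcriptional coactivator of non-neuroendocrine SCLC, rose from 4.36, 4.60 and 4.14 to 5.61, 5.90 and 5.69 (difference 1.37, SE 0.17, adjusted P = 1.27e-05). TPM2, a tropomyosin, rose from 0.90, 1.30 and 1.28 to 3.58, 3.47 and 3.15 (difference 2.24, SE 0.16, adjusted P = 3.25e-08). The adhesion receptor CD44 fell from 1.49, 2.12 and 2.41 to 0.45, 0.22 and 0.26 (difference -1.70, SE 0.36, adjusted P = 0.00148), and the protease MMP2 by 1.18 (SE 0.26, adjusted P = 0.00203). VIM, the intermediate filament of mesenchymal cells, read 4.89, 5.68 and 5.19 against 5.11, 5.30 and 5.24 (difference -0.04, SE 0.31, adjusted P = 0.956). AXL, a receptor kinase of the same state, read 0.12, 2.92 and 3.43 in intact and 1.91, 1.13 and 1.03 in STING1 KO libraries (difference -0.80, SE 0.58, adjusted P = 0.302). Intact library 4 decided the AXL result: without it the difference was -1.82 (adjusted P = 0.000961).

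Of the epithelial junction genes, 13 were tested, 2 were higher and 1 was lower (median -0.21, and -0.06 without intact library 4). The shares over all genes were 6.64% higher and 7.72% lower. CLDN7, a tight junction claudin, rose from 2.53, 2.79 and 3.14 to 5.29, 5.54 and 4.81 (difference 2.39, SE 0.50, adjusted P = 0.0013). ESRP1, an epithelial splicing factor, rose from 1.04, 3.21 and 3.29 to 4.79, 4.91 and 4.16 (difference 2.10, SE 0.52, adjusted P = 0.00453). Both groups of values were clear of each other. KRT8, an epithelial keratin, was lower by 1.20 with overlapping values, namely 0.99, 2.65 and 3.02 in intact and 1.69, 0.30 and 1.05 in STING1 KO libraries (adjusted P = 0.0373), and its call held in 2 of the 6 fits without 1 library.

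Cell cycle genes were lower at the median, by -0.57 over 31 tested genes, with 2 higher, 5 lower and 24 not called. Beside them, 6.64% of all genes were higher and 7.72% lower. The replication licensing genes MCM6 and MCM2 fell by 1.49 (SE 0.19, adjusted P = 1.99e-05) and by 1.30 (SE 0.23, adjusted P = 0.000373). CCND2, a G1 cyclin, fell from 2.70, 3.91 and 4.25 to 1.73, 1.35 and 1.06 (difference -2.24, SE 0.32, adjusted P = 5.87e-05). The 2 higher genes encode cyclin-dependent kinase inhibitors: CDKN1B rose from 2.69, 3.02 and 3.19 to 4.55, 4.46 and 4.20 (difference 1.44, SE 0.16, adjusted P = 4.21e-06), and CDKN2A from 3.94, 3.80 and 4.03 to 4.96, 4.96 and 5.14 (difference 1.09, SE 0.18, adjusted P = 0.00018). MYC read 9.70, 9.99 and 10.02 against 8.67, 8.67 and 9.38, without overlap (difference -0.996, SE 0.22, adjusted P = 0.00226), and just missed the threshold of size.

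The remaining lists held few called genes. AP-1 factors had the highest median of the lists, at 0.70 over 10 tested genes, with FOSL1 and JUND higher and 0 lower. The FOSL1 call held in 2 of the 6 fits without 1 library (highest adjusted P = 0.102). Of the genes of the integrated stress response, 0 of 20 were called (median 0.03), and of the MYC and RB axis 0 of 13 (median -0.07). Hypoxia and glycolysis held 1 higher gene of 24 (VEGFA, a call that held in 3 of the 6 fits; median -0.24, with a range from -0.91 without intact library 4 to 0.19 without intact library 5), cholesterol synthesis 1 higher and 1 lower of 22 (median -0.09), and NF-kB targets and chemokines 1 lower of 14 (CXCL11, which fell by 1.92; median 0.08). Of the tuft and other non-neuroendocrine markers, AVIL was higher and CHAT lower of 2 tested, and of the markers of immune cells (3 tested, median 0.47, and 0.19 without intact library 4) and of fibroblasts and endothelium (4 tested, median -0.11) none was called.

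Called genes were unevenly spread over the chromosomes. On chromosome 3, 227 of 750 tested genes (30.3%) were lower and 9 (1.2%) higher, with a median difference of -0.70. On chromosome 2, 189 of 901 (21%) were lower and 30 (3.33%) higher, with a median of -0.54. These 2 chromosomes held 11.9% of the tested genes, 38.8% of the genes called lower and 4.23% of those called higher. The next lowest medians were -0.38 on chromosome 15 and -0.32 on chromosome 8, and the highest was 0.23 on chromosome 13. For chromosomes 15, 8 and 13, the medians against REST KO cells without doxycycline were -0.0004, -0.04 and 0.39. Against parental cells they were -0.41, -0.45 and -0.01. REST KO minus intact gave -0.32, -0.27 and -0.07 for them. The decrease on chromosomes 2 and 3 ran along their whole length. In windows of 20 Mb, all 13 medians of chromosome 2 (-0.69 to -0.17) and all 10 of chromosome 3 (-1.005 to -0.38) were below 0. Without intact library 4 the medians were -0.70 for chromosome 3 and -0.52 for chromosome 2.

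The same chromosomes stood apart over all 6 STING1 KO libraries, of which 3 are those compared above. The others, given doxycycline, carry the same vector and knockout labels and may come from the same edited cells. Taking each gene as its deviation from its mean over the 21 H82 libraries, the median of chromosome 3 lay between -0.53 and -0.39 in the 6 STING1 KO libraries, with and without doxycycline, and between 0.09 and 0.35 in the other 15. For chromosome 2 the ranges were -0.42 to -0.35 and 0.03 to 0.24. Of the 23 chromosomes examined, these 2 alone had ranges that did not overlap between STING1 KO and other libraries. With doxycycline, the STING1 KO minus intact medians were -0.72 for chromosome 3 and -0.57 for chromosome 2. Against REST KO cells without doxycycline they were -0.64 and -0.47, and against parental cells -0.60 and -0.47. REST KO minus intact, which shares the intact libraries, gave -0.08 for each. In COR-L88 cells the STING1 KO minus intact medians were -0.07 and -0.04 beside -0.03 over all genes. The files hold RNA levels only, so the number of gene copies and the RNA made per copy cannot be told apart.

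**Figure D4:**
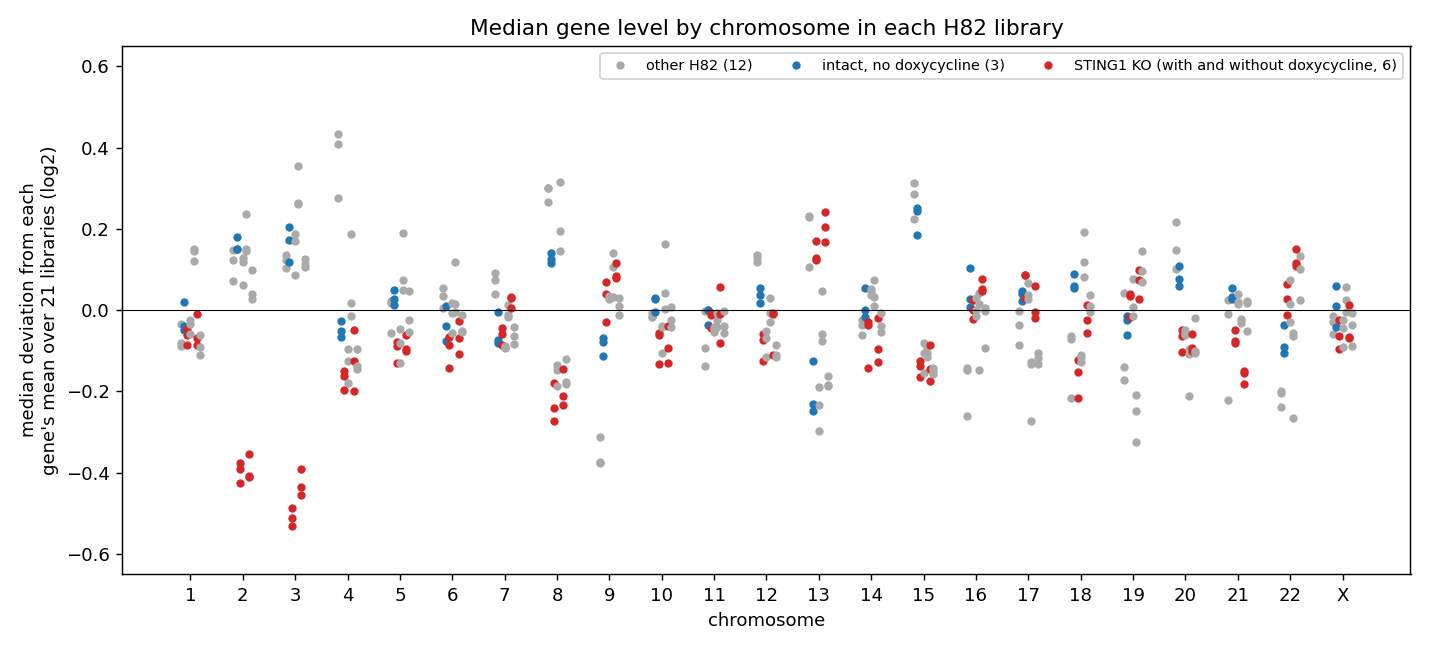
Median over the genes of each chromosome (x axis) of the deviation from each gene's mean over the 21 H82 libraries (y axis, log2 units); each point is 1 library, red for the 6 STING1 KO, blue for the 3 intact libraries without doxycycline and gray for the other 12. The red points lie at -0.35 or below on chromosomes 2 and 3, clear of every other library.

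Neuroendocrine genes were also counted off these chromosomes. Of the 24 tested neuroendocrine genes on other chromosomes, 17 were lower (70.8%, beside 5.36% of all genes off chromosomes 2 and 3), with a median of -1.62. NEUROD1 itself lies on chromosome 2, and its part in the other genes was not tested. MCM6 and KIF5C lie on chromosome 2 and MCM2 on chromosome 3, where the medians above apply, and their share in these calls was not tested. With the genes of both chromosomes left out of the fit, 1534 genes were called, 879 higher and 655 lower.

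Differences also followed the base composition of the transcripts. The median difference rose from -0.32 for the 2344 genes whose longest transcript has at most 40% G and C to 0.48 for the 500 genes above 65%. The share called higher rose from 1.92% to 24%, and the share called lower went from 9.98% to 5.2%. The median GC content was 56.9% for genes called higher, 45.7% for genes called lower and 48.4% for all. Against REST KO cells the median ran only from -0.15 to 0.11 over the same classes. Against parental cells it ran from -0.37 to 0.68. REST KO minus intact, which shares the intact libraries, ran from -0.16 to 0.44. With doxycycline, where the STING1 KO and intact libraries are others, the STING1 KO minus intact median ran from -0.49 to 1.08. After each library was adjusted for GC content and transcript length, 1727 genes were called, 892 higher and 835 lower, and 1428 of them were among the 1996. In that fit 17 neuroendocrine genes were lower (median -1.29) and chromosome 3 had a median of -0.54. The estimated library size also moved with the groups, as given above, and its part in the differences was not tested.

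**Figure D5:**
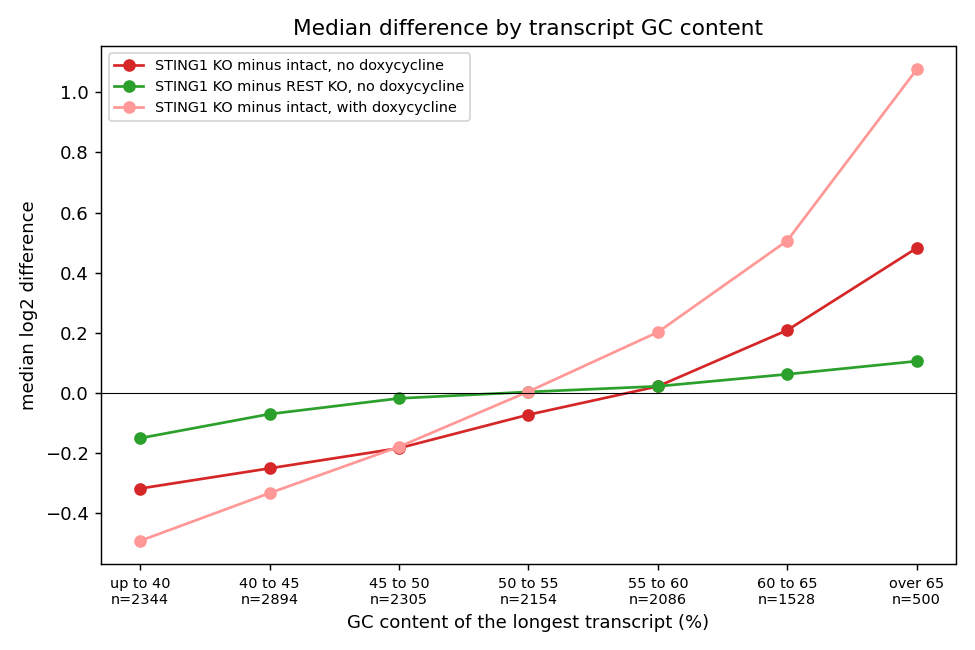
Median difference in log2 units (y axis) for 7 classes of transcript GC content in percent (x axis, with the number of genes per class); dark red is STING1 KO minus intact without doxycycline, green STING1 KO minus REST KO without doxycycline, and light red STING1 KO minus intact with doxycycline. The dark red line rises from -0.32 to 0.48 and the green line from -0.15 to 0.11.

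The differences were set beside the other reference groups. Against REST KO cells without doxycycline (3.75% of genes higher, 4.44% lower), 19 of the 28 neuroendocrine genes were lower in STING1 KO, 1 was higher (INSM1, by 1.09) and the median was -1.74. Against parental cells (10% higher, 11.2% lower), 17 were lower and 0 higher, with a median of -1.34. These comparisons share the STING1 KO libraries with the main one, and so are no separate observation of the knockout. REST KO cells also lack the repressor of such genes. REST KO minus intact had 5 of the 28 neuroendocrine genes higher and 1 lower, with a median of 0.25 beside -0.07 over all genes. How far the levels of REST KO cells enter the differences from them was not tested. For SYT4, REST KO libraries read 7.04, 7.09 and 7.86 and parental libraries 5.73, 5.75 and 5.63, beside at most 0.56 in STING1 KO libraries. For CHGB, REST KO libraries read 6.42, 6.48 and 6.83 and parental libraries 5.40, 5.41 and 5.22, beside at most 1.31 in STING1 KO libraries. Both genes were thus lower in STING1 KO than in any of the 9 other libraries without doxycycline. YAP1 was higher by 2.98 against REST KO. IFITM2 was higher by 5.20 against REST KO (adjusted P = 1.29e-07), whereas USP18 (0.35, adjusted P = 0.614), B2M (-0.28, adjusted P = 0.689) and IFI30 (-0.20, adjusted P = 0.784) were not called. Of the 24 named genes, 10 of 12 higher and 11 of 12 lower were called in the same direction against parental cells, with MIR296 (0.42, adjusted P = 0.68), AMH (1.37, adjusted P = 0.107) and GABRA5 not called. Against REST KO cells 8 higher and 9 lower were, and AMH (-0.27, adjusted P = 0.864), WNT6 (0.16, adjusted P = 0.961), HIST1H2AK, MSH5-SAPCD1, GAP43, LPL and GAGE12H were not called. LPL and GAGE12H were also near 0 in REST KO libraries, with at most 0.18 and 0.12, and differed from them by 0.06 and 0.21 (adjusted P = 0.972 and 0.681).

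With doxycycline, where N1ICD is expressed, the knockout was compared in 6 other libraries (7.72% of genes higher, 8.75% lower). They may come from the same vector and knockout cells as the libraries without doxycycline. Of the 923 genes higher without doxycycline, 408 (44.2%) were also higher with it and 11 were lower, and these were 38% of the genes higher with doxycycline. Of the 1073 lower genes, 409 (38.1%) were also lower with it and 16 were higher, and these were 33.6% of the genes lower with doxycycline. The shares are above the background percentages, and both comparisons hold the patterns of chromosome and GC content given above. Of the neuroendocrine genes, 4 of 28 were lower with doxycycline and the median was -0.07. CHGA read 0.30, 0.34 and 0.58 in intact and 0.19, 0.44 and 0.38 in STING1 KO libraries with doxycycline, and CHGB 0.81, 0.56 and 0.85 against 0.45, 0.79 and 0.45, so that both groups were near 0. The levels of STING1 KO cells without doxycycline given above lay between these and those of intact cells without it for CHGA. Of the 18 neuroendocrine genes lower without doxycycline, 11 had a more negative difference without doxycycline than with it by the interaction test. The same was found for 3.91% of all genes and for 21.7% of the 1073 genes called lower, and the 18 were taken by the difference without doxycycline, which enters the interaction. In the class I list the order was the other way, with 9 of 19 lower with doxycycline, among them HLA-B (difference -3.25) and B2M (-2.33), and 9 of 31 interferon-stimulated genes lower.

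In COR-L88, another SCLC line, STING1 KO and intact cells in DMSO differed in few genes (0.457% higher, 1.01% lower of 13134 tested). STING1 read 0.24, 0.41 and 0.20 in intact and 0.12, 0.36 and 0.10 in STING1 KO libraries. Of 783 genes higher in H82 and tested in both lines, 12 (1.53%) were also higher in COR-L88, where 0.398% of the 12064 genes tested in both lines were higher, and 12 were lower. Of 936 genes lower in H82, 10 (1.07%) were lower and 4 higher in COR-L88, where 0.937% of the same genes were lower. The 12 and 10 shared genes were 25% and 8.85% of those called in COR-L88 in each direction. The share of lower genes was thus near its background and that of higher genes above its own, with as many genes called the opposite way.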

How the data were processed

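RNA of 60 human libraries was sequenced by the authors after poly(A) selection. Reads were trimmed with cutadapt, aligned to hg19 with STAR and quantified with RSEM; the deposited values are log2 of TMM-normalized (edgeR) RPKM plus 1, per the labels and the methods. Read totals were not given, so depth is known only as relative size. Columns were matched to samples by name, and 0 columns were left unmapped. The KP1 mouse table was not used.

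limma 3.58.1 in R 4.3.3 was fitted to the 21 H82 libraries with 1 mean per group and an intensity trend, after keeping genes at log2 values of at least 1 in at least 3 libraries. P values were adjusted by Benjamini and Hochberg over all 13903 genes; calls needed an adjusted P under 0.05 and a difference of at least 1. In simulated data for this comparison with 13903 genes, the changed genes were drawn from those with an intact mean over 3. Of these, 97% of genes changed 4-fold (difference of 2) and 85% of those changed by 1.5 log2 units were called. Recovery of changed genes at lower levels was not simulated. The simulated noise was independent between genes and libraries. Patterns shared by many genes of a library, such as those of library 4, GC content or library size, were therefore not simulated. COR-L88 was fitted alone on 13134 genes. Positions are GENCODE annotation on GRCh37; GC content and length are of the longest transcript. After STING1, genes were named by rule: the 12 largest differences per direction among calls without overlap between groups, with a mean of at least 2 in the higher group, called in all 6 fits leaving out 1 library, and not LOC or LINC symbols; 14 genes of the pathways studied and called list members were also named, and others (MATR3, SCG2, PCSK1, UCHL1, ENO2, HLA-C, STAT2, TAP1, IFIT1, MX1, OAS1, RSAD2, IFNB1, CCL5) were chosen after their values were seen. PCSK1N was also chosen after its values were seen. Members and lists were chosen with earlier results of these data known. Alternatives were no filter, a pseudocount of 0.1, quantile normalization, median centering, only both groups, no trend and leaving out each library; adjusting for GC content and length and leaving out chromosomes 2 and 3 were chosen after seeing the data. Results for a few genes are not reported here.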

Additional observations from a re-analysis of the deposited data

Results flagged for a closer look

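The difference between STING1 KO and intact libraries itself differed without and with doxycycline in 990 genes, by an interaction test in the same limma fit (adjusted P under 0.05 and a difference of differences of at least 1). Among 36 tested genes taken by the naming rule or fixed by name, 18 were of this kind, beside 7.12% of all tested genes. Of the 36, 24 were named for the size of their difference without doxycycline, which enters the interaction, so the count is a description. A value below 0 means that the difference was more negative without doxycycline. It was -5.01 for STMN2, -5.35 for GABRA5, -3.94 for SYT4, -4.83 for GAP43, -3.34 for PTPRN, -4.02 for CHRNB2, -4.58 for NRSN1, -3.73 for CAMKV, -3.86 for CLVS1, -3.22 for LPL and -4.27 for GAGE12H. Above 0 were MIR145 (3.68), COL2A1 (1.91), SMARCD3 (3.65), SMTNL1 (2.91), SLX1A-SULT1A3 (2.16), REST (1.22) and HLA-B (3.32). REST differed by 0.62 without and by -0.60 with doxycycline. HLA-B differed by 0.06 without and by -3.25 with doxycycline. With doxycycline, STMN2 read 1.73, 2.78 and 2.59 in intact and 0, 0 and 0.18 in STING1 KO libraries, whereas LPL read 4.54, 4.87 and 4.64 against 3.61, 3.61 and 3.50. No explanation was tested.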

How the results depend on the processing

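No paired analysis was possible because the library numbers run in series over the study and the groups compared share none. Leaving out 1 library gave 1670 to 2272 called genes (752 to 1051 higher, 918 to 1312 lower); a pseudocount of 0.1 gave 2836. Leaving out chromosomes 2 and 3 gave 655 lower genes. The neuroendocrine median was -2.24 with a pseudocount of 0.1 and -1.72 to -1.27 without 1 library. The chromosome 3 and chromosome 2 medians were -0.87 and -0.66 with a pseudocount of 0.1, -0.59 and -0.44 with quantile normalization, -0.62 and -0.46 with median-centred libraries, -0.54 and -0.39 adjusted for GC content and length, and -0.72 to -0.69 and -0.54 to -0.52 without 1 library. The cGAS-STING median was 0.18 with quantile normalization and -0.0699 to 0.0794 without 1 library; the interferon-stimulated median was 0.22, the interferon receptor median 0.0495 and the fibroblast and endothelial median 0.0284 after the GC adjustment. Without 1 library, 40.2% to 48% of higher and 32.5% to 40.1% of lower genes were also called with doxycycline, and 1.46% to 1.93% and 0.902% to 1.28% in COR-L88. Of the named genes followed through every alternative, none reversed; besides B2M, CALR and INSM1, calls were lost for IFI30 and SYP (quantile normalization), ESRP1 (only both groups), and CDKN2A and JUND (GC adjustment). SYT1, KRT8, FOSL1, VEGFA and RFNG, not followed through the other alternatives, lost calls when 1 library was left out, as given above. HES1 passed after the GC adjustment (1.04, adjusted P = 0.0369), NEUROD1 with only both groups (adjusted P = 0.0462), and MYC without library 4 (-1.10) or 57 (-1.23). The causes were not tested. With 3 libraries a group and no read totals, small differences in genes near 0 were not detectable.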

Other observations

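Gene families outside the lists above were counted after their leading members had been seen, taking every tested member by its symbol. Over all tested genes, 6.64% were higher and 7.72% lower (median -0.11). Metallothioneins, which bind zinc and copper, were lower in 5 of 6 tested genes (median -1.83). MT1X read 9.51, 12.60 and 11.91 in intact and 7.36, 8.82 and 7.49 in STING1 KO libraries (difference -3.45, adjusted P = 0.000631), and MT2A differed by -2.04 (adjusted P = 0.00466). Against parental cells, neither MT1X (-0.49, adjusted P = 0.578) nor MT2A (0.19, adjusted P = 0.805) was called. The same held against REST KO cells without doxycycline (-1.76, adjusted P = 0.0738, and 0.05, adjusted P = 0.99). MT1F was called lower against parental cells alone, MT1A against REST KO cells alone, and MT1G against both. Reads of metallothionein genes may be shared between paralogs. Intermediate filaments of neurons were lower in 4 of 6, with NEFM at 6.71, 6.50 and 6.42 against 2.84, 3.26 and 3.26 (difference -3.42, adjusted P = 1.07e-07) and INA at -3.04 (adjusted P = 1.91e-06).

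Subunits of the GABA-A receptor, a chloride channel, went in both directions: of 9 tested, 5 were lower and 3 higher. GABRA3 was 1.16 higher (adjusted P = 0.00138). Cancer-testis genes of chromosome X were mixed as well. GAGE, PAGE and XAGE genes were lower in 5 and higher in 2 of 21 tested, with PAGE5 at -3.95 and GAGE10 at 2.76. MAGEA genes were lower in 3 of 9, with MAGEA1 at 5.65, 5.20 and 5.39 against 2.64, 0.91 and 2.01 (difference -3.56, adjusted P = 5.67e-06). Against parental cells PAGE5 and MAGEA1 were also lower (-4.30 and -4.71) and GAGE10 was also higher (2.32). REST KO libraries without doxycycline were all listed at 0 for PAGE5, and STING1 KO was higher than these (2.85, adjusted P = 0.00278). GAGE10 was higher against REST KO cells as well (1.99), and MAGEA1 was not called (-0.39, adjusted P = 0.587). Proteins of the large ribosomal subunit were lower in 12 and higher in 0 of 51 tested (median -0.73). Of these 12, 8 lie on chromosomes 2 and 3, which were lower as a whole; on other chromosomes 4 of 41 were lower (median -0.61). HOX genes were higher in 4 and lower in 0 of 31 (median 0.32), replication-dependent histones higher in 7 and lower in 2 of 35 (median 0.29), collagens higher in 5 and lower in 1 of 34 (median 0.11), and nicotinic receptor subunits higher in 1 and lower in 1 of 9 (median 0.40). C2H2 zinc finger genes named ZNF had a median of -0.09, close to that of all genes, with 23 higher and 7 lower of 423, and none of 16 clustered protocadherins was called.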
